A study of Mus musculus with 15 samples.

Results

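The macrophage and monocyte markers described here are 10 genes: Emr1 (current symbol Adgre1), Csf1r, Cd68, Fcgr1, Msr1, Mrc1, Cd14, Itgam, C1qa and C1qb. They were chosen by name, and every non-control probe whose gene name or RefSeq identifier is one of them was used. This gave 17 probes for all 10 genes, of 41121 probes and 27647 genes on the array. Of the 27647 genes, 20310 were bright enough to be tested, among them all 10 markers.

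Uterine RNA was taken from CD-1 mice, which are outbred, after removal of the ovaries, so the animals of every group lacked ovaries. The mice received 100 µl of saline (vehicle), or 250 ng of E2 or of E3 in that volume; the labels' E2 and E3 usually stand for estradiol and estriol, and estriol carries an additional hydroxyl group on its D ring. The 5 groups of 3 one-colour arrays were the vehicle group and the groups collected after 2 h (E2 2 h, E3 2 h) or after 24 h (E2 24 h, E3 24 h), named by the time from injection to collection. The sources used here do not say when the vehicle uteri were taken or whether the arrays of a group came from separate animals, so the p-values here rest on array-to-array spread that could be technical.

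Macrophages are resident phagocytes of the uterine wall, and monocytes are their circulating precursors. CSF1 and IL-34 bind the receptor CSF1R and sustain the lineage, while the transcription factor PU.1 (gene Spi1) switches on many of its genes. The cells recognise antibody-coated particles through Fc receptors, modified lipoproteins and sugars through scavenger and mannose receptors, and bacterial lipopolysaccharide through CD14 with TLR4; they also secrete C1q, which starts the classical complement cascade. Ovarian steroids are known to change the number of leukocytes in the uterus.

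Probes are shown for 3 genes: Emr1, which was called between E2 and E3, and the most alike pair. The Emr1 probe shown is the second and dimmer of its 2 probes, at chr17:55613754-55613813 (mm7, plus strand), and it gave the E2 against E3 difference a second reading. The Emr1 values below are from the brighter probe, not printed, unless the probe is named. The C1qa probe (chr4:136274931-136274990, minus strand) and the C1qb probe (chr4:136259100-136259159, minus strand) gave the most alike profiles of any 2 markers. Capitals mark the longest stretch that the C1qa and C1qb probes share, which is 5 bases. Positions are those given in the array files; exon or UTR was not determined here.
Emr1 probe: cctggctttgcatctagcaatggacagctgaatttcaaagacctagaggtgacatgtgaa
C1qa probe: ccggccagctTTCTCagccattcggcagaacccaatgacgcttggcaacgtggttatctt
C1qb probe: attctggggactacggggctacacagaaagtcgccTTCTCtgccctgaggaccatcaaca

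RefSeq promoter windows (GRCm38.p6), the 250 bases before the gene start, were matched for 5 of the 10 markers: Mrc1, Fcgr1, C1qb, Itgam and Cd68. They were searched on both strands for GAGGAA, the core of PU.1 sites, a motif picked after the values had been seen. GAGGAA occurred in 5 of the 5 windows and in 23.3% of all 32851 promoter windows of that length. The oestrogen half-site AGGTCA occurred in 0 of the 5 and in 14.0% of all windows, and the full oestrogen response element in 0 of the 5 and in 0.0639% of all. A match is a description of letters and not a binding site. The 3 windows with a single GAGGAA are printed, with the motif (or its reverse complement TTCCTC) in capitals: Fcgr1 at chr3:96293970-96294219 (minus strand), C1qb at chr4:136886201-136886450 (minus strand) and Cd68 at chr11:69666171-69666420 (minus strand).
Fcgr1 promoter: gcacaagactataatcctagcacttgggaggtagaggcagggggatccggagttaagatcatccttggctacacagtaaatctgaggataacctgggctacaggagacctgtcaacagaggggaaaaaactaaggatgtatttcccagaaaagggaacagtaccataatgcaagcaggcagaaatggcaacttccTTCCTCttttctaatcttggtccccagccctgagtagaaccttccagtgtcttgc
C1qb promoter: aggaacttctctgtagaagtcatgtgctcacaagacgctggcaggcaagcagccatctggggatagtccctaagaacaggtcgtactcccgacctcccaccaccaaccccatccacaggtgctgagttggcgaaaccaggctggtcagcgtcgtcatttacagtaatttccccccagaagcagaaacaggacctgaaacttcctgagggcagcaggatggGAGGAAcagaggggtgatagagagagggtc
Cd68 promoter: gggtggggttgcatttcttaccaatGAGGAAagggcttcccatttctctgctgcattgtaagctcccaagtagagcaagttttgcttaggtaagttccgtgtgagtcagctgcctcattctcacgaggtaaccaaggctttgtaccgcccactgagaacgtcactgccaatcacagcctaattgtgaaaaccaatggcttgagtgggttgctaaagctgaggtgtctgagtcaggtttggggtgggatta

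Levels are log2 of the deposited processed signal minus the 75th percentile of the same array, so a level of 0 is the signal at that percentile and a difference of 1 is 2-fold. They are compared between groups and not between genes. That percentile lay between 1052.8 and 1854.1, and 63.06% to 80% of probes were well above background on an array. Arrays of one group correlated at 0.986 to 0.992 over the genes tested, except those of E3 24 h (0.962 to 0.974), whose median SD per gene was 0.28 against 0.17 to 0.20 elsewhere. There were 6 slides and 3 scan days; the vehicle arrays filled 1 slide alone, and E2 and E3 arrays of the same time never shared one, so slide and group cannot be fully told apart. Epithelial (6 of 6 genes), stromal (7 of 7) and smooth muscle (7 of 7) markers were all bright enough to be tested. They mark these cell types in general, so their presence does not identify the organ. In whole uterus, fewer cells of a type and less RNA per cell cannot be told apart.

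At 2 h the markers lay at or below vehicle with both oestrogens, and Msr1, the class A scavenger receptor that takes up modified lipoproteins, changed most. Msr1 stood at -2.32, -2.75 and -2.97 on the vehicle arrays, at -2.97, -4.83 and -4.16 with E2 2 h and at -4.05, -4.23 and -4.55 with E3 2 h. Every array of both oestrogens was below every vehicle array, although E2 2 h replicate 1 lay just under the lowest of them. The fall was 2.47-fold with E2 (log2 -1.30, SE 0.41, adjusted p = 0.024) and 3.03-fold with E3 (log2 -1.60, SE 0.41, adjusted p = 0.0082). All p-values are from limma, adjusted by the Benjamini-Hochberg method over the 20310 genes, and a gene is called when the adjusted p is under 0.05. The other Msr1 probes gave -0.996 (adjusted p = 0.068) and -1.05 (0.03) with E2, and -1.24 (0.026) and -1.11 (0.022) with E3. On the first of these probes E2 2 h replicate 1 (-3.597) lay within the vehicle range, above vehicle replicates 2 (-3.599) and 3 (-4.024).

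Mrc1, the mannose receptor, also fell with E2 at 2 h. Its levels were -0.31, 0.11 and -0.60 with vehicle, -0.59, -0.94 and -0.78 with E2 2 h and -0.35, -0.67 and -0.89 with E3 2 h. Vehicle replicate 3 and E2 2 h replicate 1 overlapped. The change was -0.50 (SE 0.19, adjusted p = 0.048) with E2 and -0.37 (SE 0.19, adjusted p = 0.13) with E3. Thus 2 of the 10 markers were called lower with E2 (Msr1 and Mrc1), where 23.1% of all genes tested were called lower and 38.7% were called in either direction. With E3 1 of 10 was called lower (Msr1), where 23.6% of all genes were lower and 40.2% were called; neither count stands above its background. Both comparisons use the same vehicle arrays.

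The remaining markers leaned the same way at 2 h without being called. The median of the 10 changes was -0.50 with E2 and -0.44 with E3, beside -0.14 and -0.16 over all genes tested. With E3 all 10 values were below 0, from -1.60 to -0.01, and 5 genes (Emr1, Csf1r, Cd68, Fcgr1 and Msr1) had every E3 array below every vehicle array. With E2 9 of 10 were below 0, and Fcgr1 joined Msr1 in having no overlap. The share of all genes without overlap was not counted, so these counts have no background. Cd14, the co-receptor for lipopolysaccharide, was the one nearest to no change, at 0.01 (95% interval -0.79 to 0.80) with E2 and -0.01 (-0.80 to 0.79) with E3.

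The E3 call on Msr1 at 2 h held in all 18 alternatives, with values from -1.74 to -1.10, while the E2 calls rested on single arrays. Without vehicle replicate 1, vehicle replicate 2, E2 2 h replicate 2 or E2 2 h replicate 3, limma called 0 markers with E2 (1 or 2 at an unadjusted p under 0.05); without E2 2 h replicate 1, 4 were called, and the Msr1 value ranged from -1.81 to -0.88 over all its alternatives. In the 4 fits that called 0 markers, 29.7% to 32.5% of all genes were called in either direction, and without E2 2 h replicate 1 37.1% were. That array was on slide 5 and scan day 2, while E2 2 h replicates 2 and 3 were on slide 2 and scan day 1. With each array's median as the scale, the genes called among all tested split 4208 higher and 3115 lower with E2, against 3157 and 4695 here, and 4871 and 2928 with E3, against 3370 and 4800.

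**Figure D1:**
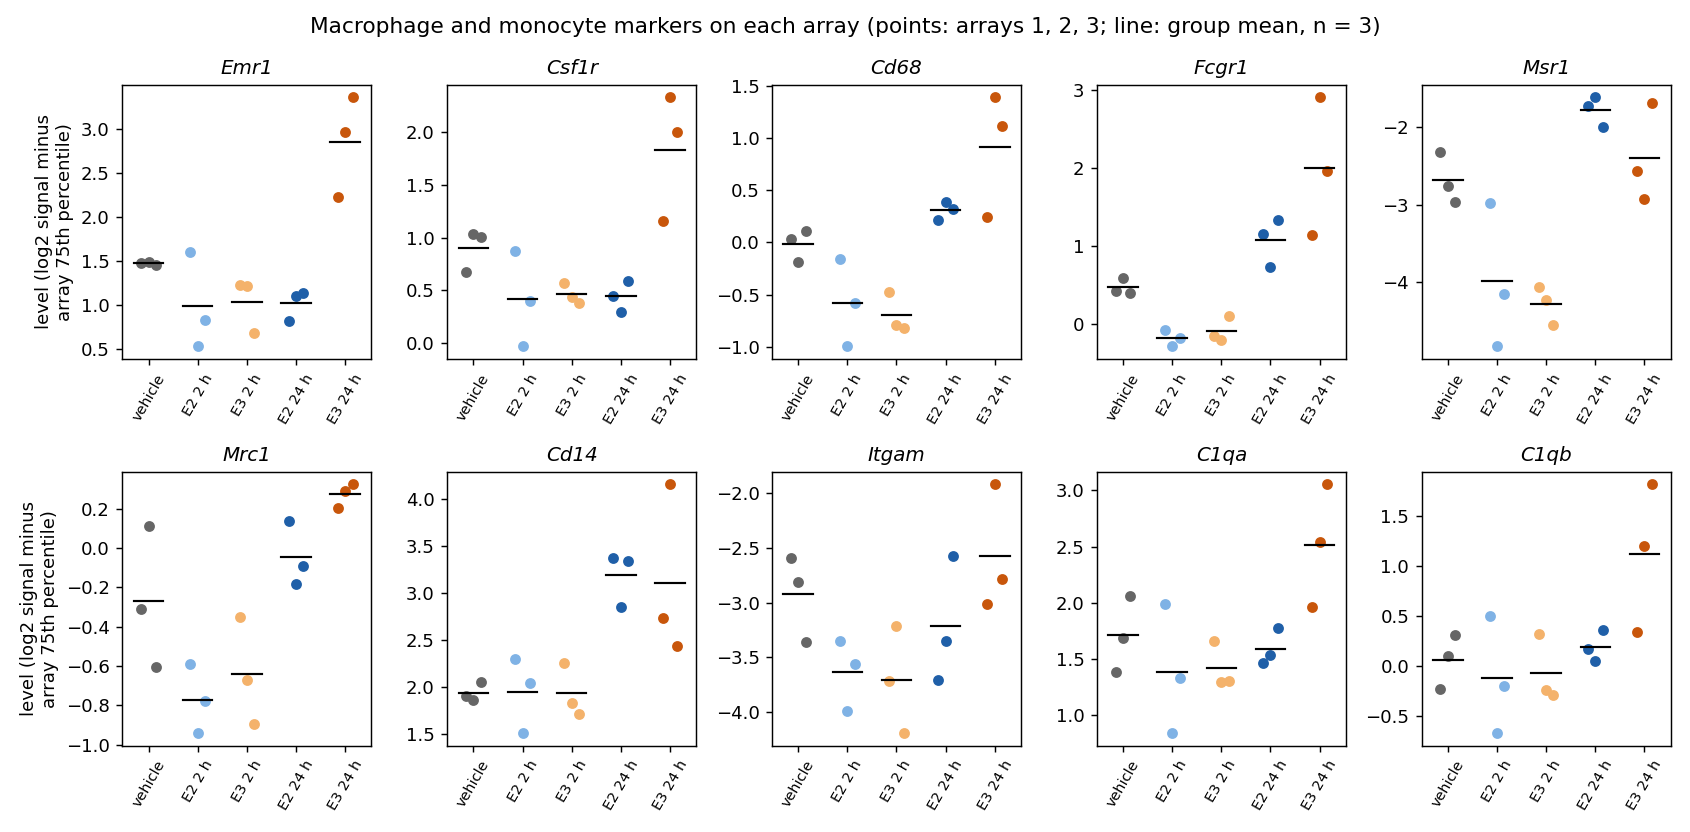
Level of each of the 10 markers (log2 signal minus the 75th percentile of the array, vertical axes with their own range per gene) in the 5 groups; points are the arrays 1, 2 and 3 from left to right and lines are means of 3. The E3 24 h mean is the highest of the 5 for 8 genes, and E2 24 h is the highest for Msr1 and Cd14.

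At 24 h after E3 the markers stood above vehicle, and Emr1, Csf1r, Cd68, Fcgr1 and Cd14 were called higher, by 1.9-fold to 2.89-fold. At 24 h after E2 only Cd14 among the 10 was called. The 2 comparisons share the vehicle arrays and are given side by side. With E3 5 of 10 markers were called higher, where 9.7% of all genes tested were called higher and 20.4% were called in either direction. With E2 1 of 10 was called higher, where 21.1% of all genes were called higher, 22.3% lower and 43.4% in all. The median change of the 10 was 0.93 with E3 and 0.18 with E2, beside 0.00 and -0.02 over all genes.

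Emr1 encodes F4/80, an adhesion G protein-coupled receptor used as the standard surface label of mouse macrophages. Its level was 1.48, 1.49 and 1.45 with vehicle, 0.82, 1.10 and 1.14 with E2 24 h, and 2.23, 2.96 and 3.36 with E3 24 h. All E3 24 h arrays were above vehicle and all E2 24 h arrays below it. The rise with E3 was 2.59-fold (log2 1.38, SE 0.30, adjusted p = 0.011), while the E2 value was -0.46 (SE 0.30, adjusted p = 0.24). At 2 h the arrays read 1.60, 0.53 and 0.82 with E2 and 1.22, 1.21 and 0.68 with E3. On the dimmer Emr1 probe, printed above, the E2 24 h arrays overlapped vehicle (change -0.10, adjusted p = 0.84).

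Csf1r is the receptor tyrosine kinase for CSF1 and IL-34. Its level was 0.68, 1.03 and 1.01 with vehicle, 0.45, 0.30 and 0.59 with E2 24 h, and 1.16, 2.33 and 2.00 with E3 24 h. The arrays took the same order as for Emr1, with E3 24 h above vehicle and E2 24 h below it and no overlap. The change was 0.93 with E3 (SE 0.28, adjusted p = 0.035) and -0.46 with E2 (SE 0.28, adjusted p = 0.20). The second Csf1r probe gave 0.93 with E3 (adjusted p = 0.036), and the third and dimmest gave 0.28 (adjusted p = 0.69). With E2 24 h these probes gave -0.28 (adjusted p = 0.45) and -0.33 (0.59), and on both the E2 24 h arrays overlapped vehicle.

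Fcgr1 encodes the high-affinity receptor for IgG. It stood at 0.42, 0.59 and 0.40 with vehicle, 1.16, 0.74 and 1.33 with E2 24 h, and 1.14, 2.90 and 1.96 with E3 24 h. Every 24 h array of either oestrogen was above every vehicle array. The rise with E3 was 2.89-fold (log2 1.53, SE 0.32, adjusted p = 0.011), and the E2 value was 0.61 (SE 0.32, adjusted p = 0.15). The other Fcgr1 probe gave 1.02 with E3 (adjusted p = 0.14) and 0.30 with E2 (0.64). On that probe the E2 24 h arrays overlapped vehicle.

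Cd68 encodes a lysosomal membrane glycoprotein of phagocytes. Its level was 0.04, -0.18 and 0.11 with vehicle, 0.22, 0.38 and 0.32 with E2 24 h, and 0.25, 1.39 and 1.11 with E3 24 h. All 24 h arrays were above vehicle, but E3 24 h replicate 1 lay among the E2 24 h arrays. The change was 0.93 with E3 (SE 0.26, adjusted p = 0.031) and 0.32 with E2 (SE 0.26, adjusted p = 0.35).

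Cd14 was the marker called with both oestrogens at 24 h. Its level was 1.91, 1.86 and 2.06 with vehicle, 3.38, 2.85 and 3.34 with E2 24 h, and 2.73, 4.16 and 2.44 with E3 24 h. The rise was 2.37-fold with E2 (log2 1.24, SE 0.37, adjusted p = 0.016) and 2.24-fold with E3 (log2 1.16, SE 0.37, adjusted p = 0.043). The E3 mean owes most to replicate 2, which had the fewest probes well above background (63.06%) and was the only E3 24 h array of scan day 2. The E3 call was lost without that array, and in 11 of 18 alternatives in all, 4 of them among the 6 fits without 1 array.

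The other 5 markers were not called against vehicle at 24 h. Msr1 was -1.73, -1.61 and -1.99 with E2 24 h and -2.57, -2.92 and -1.68 with E3 24 h, changes of 0.90 (95% interval 0.01 to 1.80, adjusted p = 0.094) and 0.29 (-0.60 to 1.18). The other Msr1 probes gave 0.85 (adjusted p = 0.10) and 1.06 (0.026, called) with E2, and 0.45 and 0.12 with E3. Mrc1 was 0.14, -0.18 and -0.09 with E2 24 h and 0.20, 0.29 and 0.32 with E3 24 h, changes of 0.22 and 0.54 (adjusted p = 0.35 and 0.056). For C1qb and C1qa, chains of the C1q molecule, the E3 changes were 1.06 and 0.81 (adjusted p = 0.053 and 0.08), and the E2 changes were 0.13 and -0.12. For Itgam, the alpha chain of the complement receptor Mac-1, they were 0.35 with E3 and -0.29 with E2.

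The E3 24 h count depended on the spread that was used and on single arrays. The E3 24 h arrays were the least alike, and the standard errors above pool all 5 groups; fitted to the vehicle and E3 24 h arrays alone, limma called 0 markers and 1 gene of all (8 markers and 5600 genes had an unadjusted p under 0.05), with adjusted p from 0.073 (Emr1) to 0.16 (Cd14) for the 5 named. The count was 7 without E3 24 h replicate 1, 2 without replicate 2 and 3 without replicate 3, and 2, 3 and 3 without vehicle replicate 1, 2 and 3; it was 2 (Emr1 and Fcgr1) with slide as a random block, with scan day as a block and on scan day 1 alone. The share of all genes called moved as well: 26.1%, 11.3% and 15.3% without E3 24 h replicates 1, 2 and 3. It was 7.04%, 7.22% and 18.1% without vehicle replicates 1, 2 and 3. With slide as a random block, scan day as a block and scan day 1 alone it was 12.2%, 11.6% and 11.3%. Fitted to the vehicle and E2 24 h arrays alone, 5 markers were called: Emr1 (-0.46, adjusted p = 0.028) and Csf1r (-0.46, 0.047) lower, and Fcgr1 (0.033), Msr1 (0.013) and Cd14 (0.0026) higher. In that fit 43.4% of all genes were called. The E2 call on Cd14 was lost without E2 24 h replicate 1 (highest adjusted p 0.053). With the array median as scale, all genes called split 6191 higher and 3025 lower with E2, against 4279 and 4536 here, and 3011 and 1315 with E3, against 1970 and 2165.

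**Figure D2:**
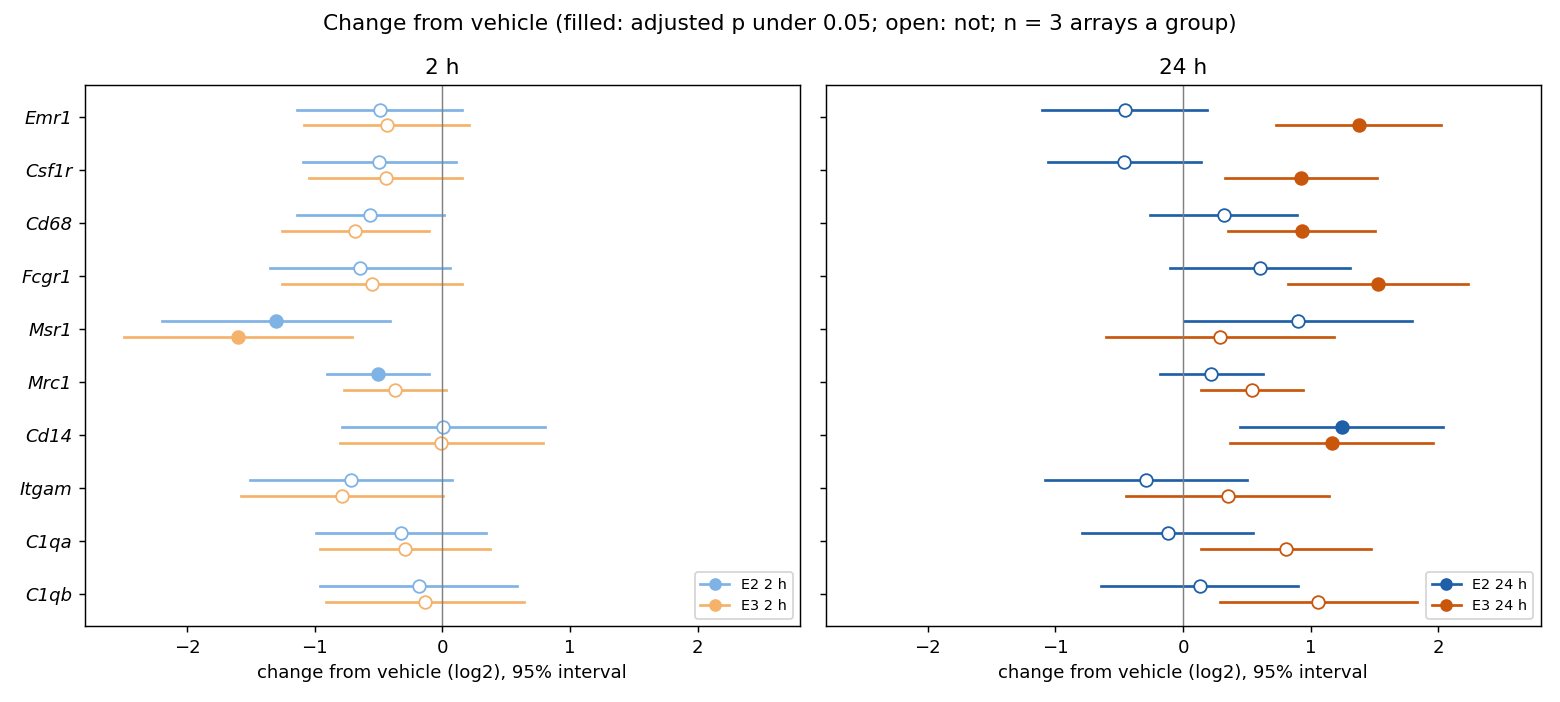
Change of each marker from vehicle (log2, horizontal axis) with its 95% interval at 2 h (left) and 24 h (right); filled points have an adjusted p under 0.05. At 2 h the points lie at or left of 0, and at 24 h the 5 filled E3 points lie between 0.92 and 1.53.

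Which of the 2 oestrogens, given at the same dose, left the higher marker level was asked at each time, 1 pair of compounds at 2 times. At 2 h the values of E2 and E3 lay close together, and at 24 h Emr1 and Csf1r were lower with E2 than with E3. Emr1 was 3.56-fold lower with E2 (log2 -1.83, 95% interval -2.48 to -1.18, adjusted p = 0.002) and Csf1r 2.61-fold lower (log2 -1.39, -1.98 to -0.79, adjusted p = 0.0061). For both genes every E2 24 h array was below every E3 24 h array. Lower calls were thus 2 of 10 markers, where 6.78% of all genes tested were called lower with E2, 8.96% higher and 15.7% in either direction. The median of the 10 differences was -0.78, beside -0.02 over all genes.

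Both Emr1 probes gave the difference at 24 h. The probe printed above read -5.76, -6.07 and -4.93 with E2 24 h and -4.38, -4.12 and -4.11 with E3 24 h, a difference of -1.39 (SE 0.36, adjusted p = 0.025). Of the other Csf1r probes one gave -1.21 (adjusted p = 0.015) and the dimmest -0.61 (SE 0.46, adjusted p = 0.41). The dimmest probe was not well above background on 1 of the 3 E2 24 h arrays.

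A further 6 markers had values below 0 at 24 h and were not called. C1qa and Mrc1 also had every E2 array below every E3 array, with differences of -0.93 (95% interval -1.60 to -0.26, adjusted p = 0.06) and -0.32 (-0.72 to 0.08). C1qa read 1.46, 1.54 and 1.77 with E2 24 h and 1.96, 2.54 and 3.06 with E3 24 h. Fcgr1 and C1qb differed by -0.93 each (adjusted p = 0.074 and 0.10), Cd68 by -0.61 (0.15) and Itgam by -0.64 (0.27). Msr1 and Cd14 had values above 0, at 0.61 (-0.28 to 1.51) and 0.08 (-0.72 to 0.88). The intervals of these 8 genes reach from -1.70 to 1.51, so a 2-fold difference lies within several of them.

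At 2 h 0 of the 10 markers were called between E2 and E3 by limma, with 0 at an unadjusted p under 0.05, and 0% of all genes tested were called (750 of 20310 at an unadjusted p under 0.05). The differences ran from -0.13 (Mrc1) to 0.30 (Msr1), and the intervals from -0.83 (C1qb) to 1.19 (Msr1). This does not show that the compounds acted alike at 2 h. The test of whether the E2 minus E3 difference itself changed between 2 h and 24 h called 1 marker, Emr1 (-1.78, SE 0.42, adjusted p = 0.03), where 2.38% of all genes were called lower, 3.85% higher and 6.22% in all. The other Emr1 probe, printed above, gave -1.38 (adjusted p = 0.14) and was not called. Csf1r had -1.34 (SE 0.39, adjusted p = 0.062), and the median of the 10 was -0.78 beside -0.03 over all genes.

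The Emr1 difference at 24 h was called in 18 of 19 alternatives and the Csf1r difference in 17 of 19. The exceptions were a fixed slide term within the treated arrays (Emr1 -0.94, adjusted p = 0.61; Csf1r -1.35, 0.32), under which limma called 0 genes of all (3221 at an unadjusted p under 0.05) and which had to link the groups through others, since no slide held both, and for Csf1r the fit to the 2 groups alone (adjusted p = 0.085). On scan day 1 alone, an alternative added after seeing the data, the differences were -1.67 (adjusted p = 0.016) and -1.14 (0.033). Without E3 24 h replicate 1, 6 markers were called lower with E2; without any other single array 2 were. Of all genes 14.2% were called without E3 24 h replicate 1, and 9.01% to 20% without another array. The call on the change of Emr1 between the times was lost in 14 of 25 alternatives. Without E3 24 h replicate 1 it came to 4 markers, without E2 2 h replicate 2 to 2, and without E2 2 h replicate 1 or 3, E2 24 h replicate 1 or 2, E3 2 h replicate 3 or E3 24 h replicate 3 to 0 by limma (2 at an unadjusted p under 0.05 in each). For this change 7.03% of all genes were called without E3 24 h replicate 1 and 3.57% without E2 2 h replicate 2. In the fits that came to 0 markers 2.13% to 3.82% of all genes were called. With the array median as scale, calls over all genes at 24 h split 2032 higher and 973 lower, against 1819 and 1378 here, and those on the change between times 1090 and 332, against 781 and 483.

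**Figure D3:**
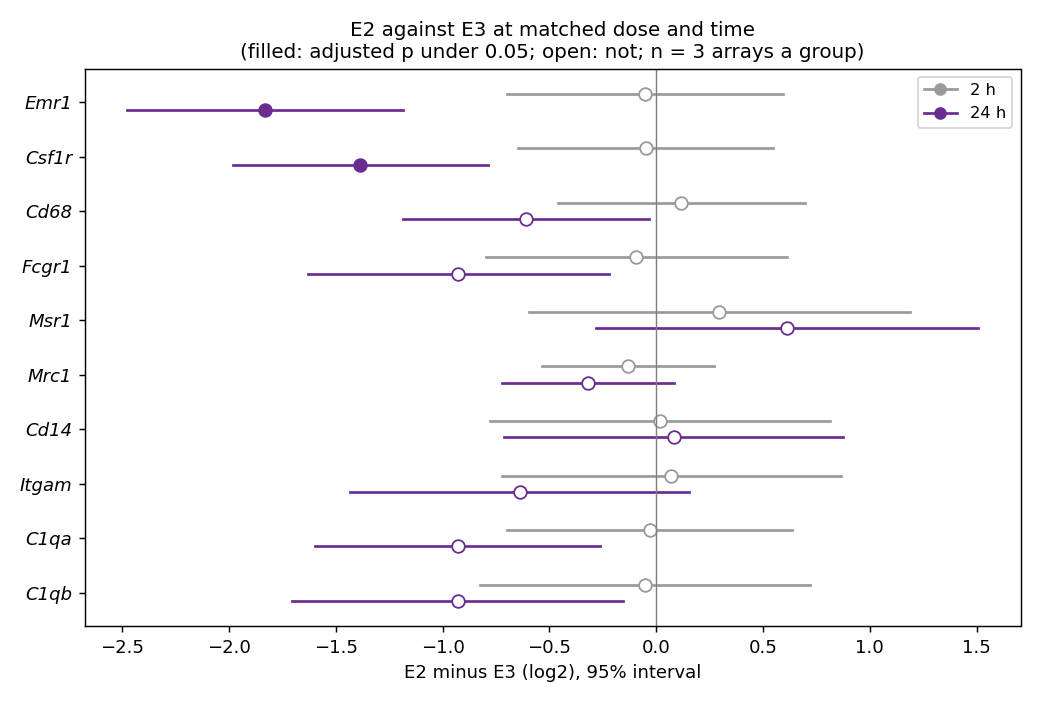
E2 minus E3 (log2, horizontal axis) for each marker with its 95% interval, at 2 h (grey) and 24 h (purple); filled points have an adjusted p under 0.05. The 2 filled points, at -1.83 for Emr1 and -1.39 for Csf1r, are at 24 h.

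Between 2 h and 24 h all 10 markers rose with E3 and 5 rose with E2. With E3 the rises ran from 1.88-fold for Mrc1 (log2 0.91) to 4.24-fold for Fcgr1 (log2 2.09). The 24 h arrays were above the 2 h arrays for every marker, and the share of all genes with such arrays was not counted. With E2 Msr1 rose 4.62-fold (log2 2.21, SE 0.41, adjusted p = 0.0007), Fcgr1 2.38-fold (1.25), Cd14 2.36-fold (1.24), Cd68 1.84-fold (0.88) and Mrc1 1.65-fold (0.73). Emr1 and Csf1r were not called with E2, both at 0.03 (95% intervals -0.61 to 0.68 and -0.56 to 0.63). The count with E3 was 10 of 10, where 29.9% of all genes were called higher, 19.8% lower and 49.7% in all, and with E2 5 of 10, where 30.6% were called higher, 21.7% lower and 52.3% in all. The medians of the 10 were 1.28 and 0.57, beside 0.19 and 0.13 over all genes.

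The complement and integrin markers were called in this comparison with E3. C1qa read 1.66, 1.29 and 1.31 at 2 h and 1.96, 2.54 and 3.06 at 24 h, a rise of 1.10 (SE 0.31, adjusted p = 0.011). C1qb read 0.32, -0.24 and -0.29 at 2 h and 0.35, 1.21 and 1.82 at 24 h, a rise of 1.19 (SE 0.36, adjusted p = 0.015). The gap between the 2 h and 24 h arrays of C1qb was narrow, since 1 array of each group lay near 0.3. Itgam read -3.71, -3.21 and -4.19 at 2 h and -3.02, -1.92 and -2.78 at 24 h, a rise of 1.13 (SE 0.37, adjusted p = 0.022). With E2 the 3 changes were 0.20, 0.32 and 0.42, all uncalled.

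E3 2 h and E3 24 h arrays shared no slide. With a fixed slide term within the treated arrays limma called 0 markers (3 at an unadjusted p under 0.05) and 134 genes of all, and the Msr1 value turned to -0.46 (adjusted p = 0.79); with scan day as a block or as scan day 1 alone, 9 of the 10 kept their call and Itgam did not. Of all genes 44.6% were called with scan day as a block and 46.9% on scan day 1 alone. For E2, slide 2 held 1 array of 24 h and 2 of 2 h, and within it Msr1 was 2.88, Cd68 1.17, Cd14 1.08, Fcgr1 0.97 and Mrc1 0.68 higher at 24 h. Without E2 2 h replicate 2 the E2 count was 3, where 45% of all genes were called.

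The order of the 5 group means was the same for Emr1 and Csf1r: E3 24 h, vehicle, E3 2 h, E2 24 h and E2 2 h. Fcgr1, Mrc1 and C1qb shared the order E3 24 h, E2 24 h, vehicle, E3 2 h and E2 2 h, and Cd68 differed from it only in that E2 2 h was above E3 2 h. Msr1 and Cd14 had E2 24 h at the top and E3 24 h next. Of the 40 pairs of neighbours in these orders, 30 had overlapping arrays. The 10 that did not included E3 24 h above vehicle for Emr1 and Csf1r, vehicle above E3 2 h for Emr1, Csf1r and Fcgr1, and vehicle above E2 2 h for Msr1. Such pairs were not counted for other genes.

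Over the 15 arrays, which share 5 groups and 6 slides, the markers varied together to different degrees. The most alike pair was C1qa and C1qb (Pearson r = 0.978), the probes of which are printed above, followed by Emr1 and Csf1r (0.952) and Cd68 and Fcgr1 (0.933). Each marker against the mean of the other 9 gave r from 0.658 (Msr1) and 0.688 (Cd14) to 0.967 (Cd68). Csf1r and Msr1 were the least alike pair (0.392). Different probes of one gene correlated at 0.956 to 0.991 for Msr1 and at 0.728 to 0.981 for Csf1r.

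The genes whose profile was most like the mean of the 10 markers were Unc93b1 (r = 0.985 over the 15 arrays), Lpxn (0.979), Clec4a2 (0.974), Gmfg (0.972), Nfam1 (0.969), Lrrc25 (0.967), Lst1 (0.966) and Fcer1g (0.966). Unc93b1 encodes a chaperone of endosomal Toll-like receptors, and Fcer1g the shared gamma chain of Fc receptors. With E3 24 h Unc93b1 was 0.92 and Fcer1g 1.11 above vehicle, and with E2 24 h 0.32 and 0.22. At 2 h Unc93b1 was at -0.44 with E2 and -0.46 with E3.

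Among the ligands and lineage factors around CSF1R, 11 of 11 genes were tested, and the ligands moved at 2 h. Csf1 rose by 0.94 (SE 0.14, adjusted p = 0.00026) with E2 and by 1.00 with E3, while Il34, the other ligand, fell by 1.05 (SE 0.26, adjusted p = 0.0069) with E2 and by 1.29 with E3. Cebpb, a transcription factor of myeloid and many other cells, rose by 3.39 (SE 0.22, adjusted p = 4.9e-07) with E2 and by 3.39 with E3. At 24 h with E2, 1 of the 11 rose and 4 fell, among them Csf2ra (-1.02), Csf2 (-1.12) and Irf8 (-0.53), beside 21.1% of all genes higher and 22.3% lower. With E3 24 h 1 of the 11 rose, beside 9.7% of all genes, which is near that background. Between E2 and E3 at 24 h, 4 of the 11 were lower with E2, among them Csf2ra (-0.83), and 1 was higher, Csf1 (0.56). Of all genes 6.78% were lower and 8.96% higher.

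Among 11 tested genes of the C1 complex, other complement proteins and complement receptors (13 listed), falls at 24 h after E2 led. With E2 24 h 6 of the 11 fell, among them C1s (-1.70, SE 0.23, adjusted p = 0.00016), Serping1 (-1.12) and C1ra (-0.96), where 22.3% of all genes were called lower. C1s and C1ra are the proteases that act with C1q, and Serping1 is their inhibitor. With E3 24 h 1 of the 11 fell, C1s (-0.91), where 10.7% of all genes did. Between the oestrogens at 24 h, 7 of the 11 were lower with E2, with a median of -0.85, where 6.78% of all genes were. C1qa and C1qb themselves were not called against vehicle at 24 h, as given above.

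Fc receptors and their signalling adaptors, 6 of 6 tested, resembled Fcgr1 between 2 h and 24 h of E3, when 5 of the 6 rose and 29.9% of all genes did. Fcgr3, a low-affinity IgG receptor, rose by 1.63 and the kinase gene Syk by 0.78. The likeness did not extend to E2 over that time, when 0 of the 6 were called and Fcgr1 rose by 1.25. Of all genes 52.3% were called there. With E2 24 h 1 of the 6 was called against vehicle, where 43.4% of all genes were: Fcgr2b, the inhibitory IgG receptor, which fell by 0.85 (SE 0.32, adjusted p = 0.046). With E3 24 h 1 of the 6 was called, where 20.4% of all genes were: Fcer1g, which rose by 1.11. Fcgr3 was at -1.45 between E2 and E3 at 24 h, the 1 gene of the list called there, where 6.78% of all genes were called lower.

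Of the 18 genes of phagocyte lysosomes and the NADPH oxidase, to which Cd68 belongs by location, 16 rose with E3 from 2 h to 24 h, where 29.9% of all genes did. With E2 1 rose and 1 fell over that time, where 30.6% of all genes rose and 21.7% fell. Against vehicle at 24 h 5 rose with E3 (9.7% of all genes did), and with E2 1 rose (Ctsb, cathepsin B, 0.62) and 2 fell: Gpnmb, a lysosomal glycoprotein (-2.40, SE 0.33, adjusted p = 0.00017), and Mpeg1, a pore-forming protein of macrophages (-1.26, SE 0.38, adjusted p = 0.017). Ctsb was also higher with E3 24 h (0.70). At 2 h Lgals3, galectin-3, fell by 0.70 with E2 and by 1.02 with E3. Between the oestrogens at 24 h 7 of the 18 were lower with E2 (6.78% of all genes were), Mpeg1 (-1.68) and Gpnmb (-1.63) among them.

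Around Cd14, 7 of 7 genes of lipopolysaccharide recognition were tested, and 5 changed at 2 h with each oestrogen, where 38.7% of all genes did with E2 and 40.2% with E3. Tlr4, the signalling receptor, fell by 1.37 (SE 0.13, adjusted p = 8.5e-06) with E2 and by 1.19 with E3, and Ly96, its partner MD-2, fell by 0.90 and 0.76. Irak3, an inhibitor of the pathway in macrophages, rose by 3.20 (SE 0.12) and 2.96, and the adaptor Myd88 by 0.64 and 0.95. At 24 h with E2 2 of the 7 fell, Tlr4 (-1.02, adjusted p = 0.00012) and Irak3 (-0.48), and 2 rose, Myd88 (0.71) and the adaptor gene Ticam1 (0.78, adjusted p = 0.0049). Of all genes 22.3% fell and 21.1% rose. At 24 h with E3 3 rose, among them Ticam1 (0.86) and Ly96 (0.68), and 0 fell, where 9.7% of all genes rose and 10.7% fell. Tlr4 was at -0.20 and not called. Cd14 itself was near 0 at 2 h and higher at 24 h.

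Of the other scavenger and endocytic receptors, 14 of 16 were tested, and fewer were called than among all genes: 3 of 14 with E2 24 h (43.4% of all genes) and 1 of 14 with E3 24 h (20.4%). Siglec1, sialoadhesin of tissue macrophages, rose by 1.37 (SE 0.42, adjusted p = 0.02) with E2 24 h and by 2.19 with E3 24 h. Colec12 fell by 0.72 and Mertk, a receptor for dying cells, by 0.61 with E2 24 h, while the E3 values were -0.28 for both and not called. Lyve1, also a lymphatic vessel marker, rose by 0.92 with E2 2 h and by 0.83 with E3 2 h.

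Of the receptors and adhesion molecules of monocyte traffic, 8 of 10 were tested, and 6 of the 8 rose with E3 from 2 h to 24 h, where 29.9% of all genes did. Against vehicle at 24 h 2 rose with E3 (9.7% of all genes did), among them Ly6c1 (1.13), and 1 fell with E2 (22.3% did), the integrin chain Itgal (-1.08, SE 0.29, adjusted p = 0.01). Between the oestrogens at 24 h 3 of the 8 were lower with E2 (6.78% of all genes were), including Itgal (-1.02) and Selplg (-1.10).

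Markers of other leukocytes moved beside the macrophage markers in part, and their part in the results was not tested. Of 9 pan-leukocyte genes, 7 rose with E3 from 2 h to 24 h, where 29.9% of all genes did. Against vehicle 3 of the 9 fell with E2 24 h, where 22.3% of all genes did (Arhgap30 -0.78, Cd37 -1.20 and Ptprc, the common leukocyte antigen CD45, -0.82), and 3 were lower with E2 than with E3 at 24 h, where 6.78% were. Their mean change from vehicle ran from -0.25 to 0.61 on the E3 24 h arrays and from -0.77 to -0.22 on the E2 24 h arrays. Over the 10 macrophage and monocyte markers it ran from 0.38 to 1.23 (E3 24 h) and from 0.11 to 0.35 (E2 24 h). With E2 24 h that marker mean joins 6 values above 0, Cd14 (1.24) and Msr1 (0.90) the largest, and 4 below. The pan-leukocyte mean lay below vehicle on every E2 24 h array. Emr1 and Csf1r did so on their brightest probes only, without being called, and their other probes overlapped vehicle. Of 15 markers of lymphocytes, NK and dendritic cells 6 fell with E2 24 h (22.3% of all genes did), among them Zbtb46 (-0.96), Klrb1c (-1.44), Ccr7 (-1.60) and Cd3g (-1.43). With E3 24 h 1 of the 15 fell (10.7% of all genes did), Zbtb46 (-0.64).

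Granulocyte markers spread widely between arrays of a group. The mean change of the 10 neutrophil genes tested ran from -0.84 to 1.40 on the E3 24 h arrays and from -0.36 to 0.59 on the E2 24 h arrays, and that of the 5 eosinophil genes from -0.49 to 0.34 and from -1.73 to 0.17. The neutrophil genes Elane and, among eosinophil genes, Epx, Prg3 and Il5ra were not well above background on all arrays of any group. Mmp9, a protease of neutrophils that other cells also make, fell with E2 24 h (-1.30) and was at 0.25 with E3 24 h, while Mpo, a neutrophil granule enzyme, rose with E2 24 h (0.95, adjusted p = 0.041). With E2 24 h Csf3r was at -1.01 (adjusted p = 0.063) and Camp at 1.51 (0.49), neither called. Of the 5 eosinophil genes 1 was called with E2 24 h, Alox15, a lipoxygenase, which rose (0.95, adjusted p = 0.046). Of all genes 21.1% were called higher and 43.4% in either direction, so this count is near its background. Prg2 (-1.9), Siglecf (-1.2) and Ear1 (-0.54) were below vehicle and not called, and the median of the 5 genes was -0.54. Itgam is carried by neutrophils as well as by macrophages. Mast cell (7 genes tested), erythrocyte (3), endothelial and lymphatic (9) and adipocyte (5) lists had mean changes on the E3 24 h arrays of -0.75 to 0.14, 0.38 to 1.10, -0.41 to -0.04 and -0.39 to 1.36. With E2 24 h 6 of the 9 endothelial and lymphatic genes fell, where 22.3% of all genes did, with array means from -0.74 to -0.39. The erythrocyte mean was above vehicle in all 4 treated groups, from 0.94 to 1.17 with E2 2 h, when Hba-a1, an alpha globin, rose by 1.34 (adjusted p = 0.0014).

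At 24 h 3 of 6 epithelial, 5 of 7 stromal and 4 of 7 smooth muscle genes rose with E2 (2 stromal genes fell), where 21.1% of all genes did, and 1, 5 and 6 rose with E3, where 9.7% did, and the share of uterine RNA that came from each cell type was not measured. The stromal mean over 7 genes was 0.94 to 1.05 above vehicle with E2 24 h and 0.95 to 1.13 with E3 24 h, so the ranges of the 2 oestrogens overlapped. Those of the macrophage and monocyte markers were separated narrowly, with the highest E2 24 h array at 0.35 and the lowest E3 24 h array at 0.38. On the E3 24 h arrays replicate 1 had the lowest mean of the macrophage and monocyte markers (0.38, against 1.09 and 1.23), and also the lowest of the Fc receptor (-0.10), lysosomal (0.01) and pan-leukocyte (-0.25) lists.

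**Figure D4:**
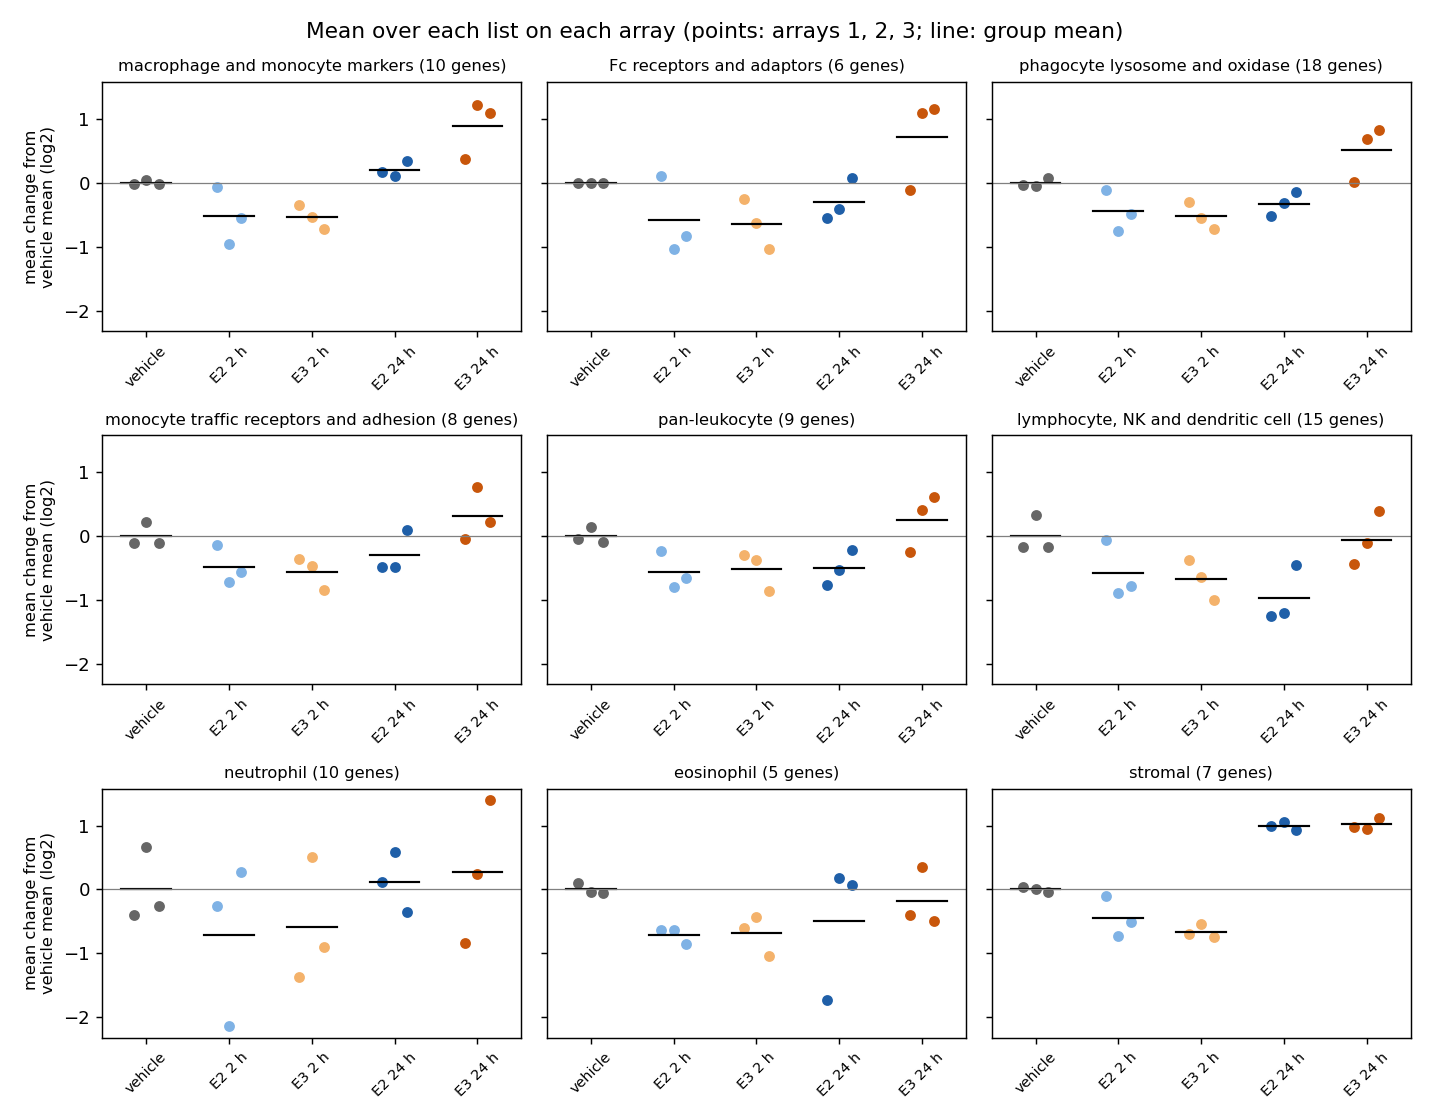
Mean change from the vehicle mean (log2, vertical axis) over the genes of 9 lists on each array, by group; points are arrays 1, 2 and 3 from left to right and lines are means of 3. The macrophage and monocyte markers lie above 0 on all 24 h arrays, the pan-leukocyte genes below 0 with E2 24 h.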

How the data were processed

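Uterine RNA (500 ng) was hybridised to 15 one-colour Agilent arrays. The authors deposited scanner output, and its processed signal, a linear intensity, was used. It came, per the file headers, from Feature Extraction 9.5.3.1 (9.5 in the submitters' processing notes), which subtracted background and removed spatial and multiplicative trends within an array, without scaling between arrays; probe positions are in mm7. The series' value table held identical numbers. Outlier spots were left out and repeated probes averaged, and 53 of 41174 probes with no usable spot on some array were dropped. Each array's 75th percentile over non-control probes was subtracted on the log2 scale. The brightest probe by mean stood for a gene, and the gene was tested where all 3 arrays of at least 1 group had that probe well above background.

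The means of the 5 groups were fitted in limma 3.58.1 (R version 4.3.3, with version 1.17.8 of data.table) over the 20310 genes, with moderated variances, 95% intervals and Benjamini-Hochberg adjustment; calls are at 0.05. An exact permutation test of 3 arrays against 3 cannot go below p = 0.1 and was not run. The fit was tested on simulated data. The text names all 10 markers, up to 4 genes per other list with the lowest adjusted p against vehicle with E2 24 h and with E2 2 h, and the 8 genes most correlated with the marker mean. Genes outside this rule were chosen after their values were seen, and some genes the rule names are not reported here. The markers and lists were chosen with earlier results of these data known.

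Alternatives were the array median or quantiles as scale, normexp background with an offset of 50, 2 other filters on dim probes, the mean of all probes, a fit to the compared groups alone, trended and robust variance, blocks for replicate number, slide or scan day, and leaving out each array. Scan day 1 alone was added after seeing the data. It leaves out replicate 1 of E2 2 h, E2 24 h and E3 2 h, and replicate 2 of E3 24 h.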

Additional observations from a re-analysis of the deposited data

Results flagged for a closer look

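Marker changes that differed between the oestrogens or between the times by a test of the difference are listed here with their values, in log2 units and from limma over all genes. Between E2 and E3 at 24 h these were Emr1 (-1.83) and Csf1r (-1.39), both lower with E2. Whether that difference was itself other at 24 h than at 2 h was called for Emr1 (-1.78).

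Between 24 h and 2 h of E2, Msr1 (2.21), Fcgr1 (1.25), Cd14 (1.24), Cd68 (0.88) and Mrc1 (0.73) were higher at 24 h. Between 24 h and 2 h of E3 all 10 were higher: Fcgr1 (2.09), Msr1 (1.89), Emr1 (1.81), Cd68 (1.61), Csf1r (1.37), C1qb (1.19), Cd14 (1.17), Itgam (1.13), C1qa (1.10) and Mrc1 (0.91). The groups of the E3 comparison shared no slide, and the part of the slide in these values was not tested apart from the blocked fits given with the results.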

How the results depend on the processing

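Counts of markers called are given here where an alternative changed them. The share of all genes called moved between alternatives as well, so a changed count is not particular to the markers. For E3 24 h against vehicle that share ran from 0.00492% with its groups alone to 26.1% without E3 24 h replicate 1. For E2 against E3 at 24 h it ran from 0% with slide as a fixed block to 20% without E3 24 h replicate 2. E2 2 h against vehicle gave 1 with the array median as scale, quantile normalization, normexp, no filter on dim probes, the compared groups alone and the replicate block, 0 with slide as a random block, 3 on scan day 1 alone and 5 with scan day as a block. E3 2 h against vehicle gave 2 with normexp, trended variance and scan day 1 alone, 3 with scan day as a block and 4 with the compared groups alone. E2 24 h against vehicle gave 2 with median scale, quantile and normexp, and 5 with its groups alone. E3 24 h against vehicle gave 8 with median scale, 7 with a probe above background on all arrays and with trended variance, 6 with normexp, 4 with quantile normalization and the mean of all probes, 2 with no filter, the replicate block, slide as a random block, scan day as a block and scan day 1 alone, and 0 with its groups alone. E2 against E3 at 24 h gave 3 with a probe above background on all arrays and with trended variance, 1 with its groups alone and 0 with slide as a fixed block, which also gave 3 for E2 24 h against 2 h and 0 for E3 24 h against 2 h. That last count was 7 with its groups alone and 9 with scan day as a block or scan day 1 alone. The change of E2 minus E3 between times gave 2 with a probe above background on all arrays and with trended variance, and 0 with the mean of all probes, no filter, its groups alone, the replicate block, scan day 1 alone, and a block for slide (fixed or random) or for scan day. Leaving out 1 array at a time gave 0 to 4 (E2 2 h), 1 to 2 (E3 2 h), 0 to 1 (E2 24 h), 2 to 7 (E3 24 h), 0 (E2 against E3 at 2 h), 2 to 6 (at 24 h), 3 to 5 (E2 24 h against 2 h), 7 to 10 (E3 24 h against 2 h) and 0 to 4 (change between times).

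Replicate numbers did not pair the samples: deviations of same-numbered arrays of 2 groups correlated at -0.22 to 0.21 (median -0.02, 30 pairs). The cause of each shift was not tested.

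Of 510 alternatives on the 27 called marker changes 414 kept call and direction, 95 lost the call and 1 turned, Msr1 in E3 24 h against 2 h with slide as a fixed block (-0.458). The other changes that turned had not been called in the values reported. With quantile normalization these were Cd14 at E2 2 h (-0.077), C1qa between E2 and E3 at 2 h (0.014), Emr1 in E2 24 h against 2 h (-0.003) and Cd14 in the change between times (-0.059). With normexp they were Cd14 at E2 2 h (-0.016), at E3 2 h (0.001) and between the oestrogens at 2 h (-0.017), and Itgam there (-0.015). With median scale they were Cd14 (0.228) and C1qb (0.104) at E3 2 h, C1qa at E2 24 h (0.096) and Cd14 between the oestrogens at 2 h (-0.042). With the mean of all probes they were Csf1r (0.064) and Fcgr1 (0.028) between the oestrogens at 2 h. With scan day as a block they were Cd14 at E2 2 h (-0.341), Cd68 (-0.071), Cd14 (-0.206) and Itgam (-0.288) between the oestrogens at 2 h, and Itgam in the change between times (0.009). On scan day 1 alone they were Cd14 at E2 2 h (-0.166), Msr1 (-0.10) and Itgam (-0.074) between the oestrogens at 2 h, and Itgam in the change between times (0.009). With slide fixed they were Cd68 (-0.231), Fcgr1 (0.382) and Msr1 (-0.51) between the oestrogens at 2 h, Cd14 at 24 h (-0.78), and Cd14 (-1.076) and C1qa (0.17) in the change between times.

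Without 1 array, uncalled values crossed 0 as follows. At E2 2 h Cd14 ran from -0.166 to 0.226 and C1qb from -0.498 to 0.089, and at E3 2 h Cd14 ran from -0.168 to 0.098. At E2 24 h C1qb ran from -0.017 to 0.257 and C1qa from -0.282 to 0.053, and at E3 24 h Msr1 ran from -0.062 to 0.556. Between the oestrogens at 2 h Cd68 ran from -0.09 to 0.327, Msr1 from -0.212 to 0.716, Cd14 from -0.158 to 0.235, Itgam from -0.172 to 0.319, Emr1 from -0.361 to 0.173, Csf1r from -0.277 to 0.174, C1qa from -0.334 to 0.242, C1qb from -0.365 to 0.222 and Mrc1 from -0.259 to 0.011; at 24 h Cd14 ran from -0.257 to 0.604. In E2 24 h against 2 h Emr1 ran from -0.194 to 0.34, Csf1r from -0.19 to 0.261 and C1qa from -0.07 to 0.505, and in the change between times Msr1 ran from -0.103 to 0.825 and Cd14 from -0.273 to 0.588. Median scaling shifted the median of all genes to 0.04 (E2 2 h), 0.08 (E3 2 h), 0.20 after E2 at 24 h and 0.14 after E3 at 24 h.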
